A study of Homo sapiens with 9 samples.

Results

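EZH2 can be targeted at its enzyme or at its transcript, and the data described here set libraries labelled with one against libraries labelled with the other. The comparison covers the 3 libraries labelled GSK343 and the 3 labelled shEZH2, 6 of the 9 RNA sequencing libraries of the series, chosen by their labels alone. GSK343 is a small molecule that inhibits the EZH2 enzyme, and shEZH2 stands for RNA interference against its messenger RNA. Each label was sequenced once in each of 3 human cell lines described by the series as triple-negative breast cancer, namely MDA-MB-231, then MDA-MB-436, and also MDA-MB-453. All cells grew in DMEM with 10% serum, and total RNA was extracted. The dose of GSK343, the hairpin, its vector and the times are not stated in what was used here. The 3 control libraries, 1 per line and labelled untreated although the column names of the table call them shControl, serve as a background level. They enter no test except an alternative fit with all 9 libraries, given at the end.

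EZH2 is the enzyme within Polycomb repressive complex 2 (PRC2). Together with SUZ12 and EED it places methyl groups on lysine 27 of histone H3, a mark of silenced genes. An inhibitor of the enzyme blocks that reaction and leaves the transcript to be made. A hairpin leads to cleavage of the transcript and removes the protein, and with it any role the protein has beyond catalysis. Triple-negative breast cancers lack the estrogen and progesterone receptors and high ERBB2, and many carry high levels of EZH2.

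Levels are RPKM (reads scaled to exon length and library size) as deposited, and a difference is that of log2(RPKM + 1), GSK343-labelled minus shEZH2-labelled, within a line. Where 3 values follow each other they belong to MDA-MB-231, then MDA-MB-436, then MDA-MB-453. The values correspond to 14757000, 16565000 and 15342000 reads in the GSK343-labelled libraries and to 18283000, 17801000 and 16626000 reads in the shEZH2-labelled ones. Of 58037 genes, 12550 had an RPKM of at least 1 in 3 or more of the 6 libraries and were tested. Markers of leukocytes were low in every library: CD3E stood at 0.042 RPKM or less, and summed levels of 5 leukocyte markers ran from 6.03 to 6.98 RPKM in GSK343-labelled and from 6.98 to 12.9 RPKM in shEZH2-labelled libraries, nearly all of it CD14.

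The libraries labelled MDA-MB-453 stood apart. Paired results are therefore also given without them, while the line-specific fits below need them, since without them no residual degree of freedom remains. A weighted sum of the 4 other treated libraries, with weights of 0.232 to 0.258, came within 1.25-fold of the MDA-MB-453 library under GSK343 for 93.7% of 7192 protein-coding genes with a mean of at least 5 RPKM. For the shEZH2-labelled library the weights were 0.174 to 0.322 and the share was 99.7%. With only the MDA-MB-231 and MDA-MB-436 libraries of the same label in the sum, the shares were 88.5% under GSK343 and 98.0% under shEZH2. As a reference with 1 library and 1 weight, scaled values of MDA-MB-231 came within 1.25-fold of MDA-MB-436 for fewer genes. The shares were 24.5% of these genes under GSK343 and 22.8% under shEZH2. The sums had more weights to fit than this reference. VIM, the mesenchymal filament protein vimentin, was under the MDA-MB-453 label at 210.1 RPKM with GSK343 and 233 RPKM with shEZH2, beside 299 and 212 RPKM in MDA-MB-231. Summed levels of 12 luminal markers were 210.0, 144 and 174 RPKM under GSK343 and 222, 139 and 179 RPKM under shEZH2, so MDA-MB-453 lay between the other lines. Of the 7192 genes, 73.9% under GSK343 and 85.2% under shEZH2 had an MDA-MB-453 value between those of the other lines under the same label. Among genes described below, KDELR1 and RPPH1 under both labels and SEC61B under GSK343 lay outside that range. What these libraries contain was not tested.

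In every line the GSK343-labelled library held less EZH2 than the shEZH2-labelled one. KDELR1, a Golgi receptor that returns escaped proteins to the endoplasmic reticulum, was lower beside it in MDA-MB-231 and MDA-MB-436, and 2 noncoding RNAs were higher. No gene passed the fit over 3 lines. These 4 genes, EZH2, KDELR1, RPPH1 and SNORA65, passed once the MDA-MB-453-labelled pair was left out. In that smaller fit the residual of a gene is only the disagreement between its differences in MDA-MB-231 and MDA-MB-436.

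EZH2 (ENSG00000106462, minus strand of chromosome 7, bases 148807383 to 148884321 in GRCh38) had 5.77, 7.53 and 7.99 RPKM in the GSK343-labelled libraries, against 16.4, 37.4 and 16.2 RPKM in the shEZH2-labelled ones. The control libraries held 27.4, 38.9 and 42.3 RPKM. Every GSK343-labelled library was thus below every shEZH2-labelled one, and in MDA-MB-436 the shEZH2-labelled library was close to its control. The paired fit gave a difference of −1.49 ± 0.51 (95% half-width, n = 3 lines) with a limma adjusted p of 0.739. Without the MDA-MB-453-labelled pair it was −1.77 ± 0.43 with a limma adjusted p of 0.0288. Because the transcript that the hairpin targets was lower under the other label, groups are named by label throughout. Whether labels were exchanged was not tested, and an exchange within a line would turn the sign of every difference in it.

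KDELR1 (minus strand of chromosome 19, bases 48382570 to 48391553) had 71.4, 35.1 and 162 RPKM in GSK343-labelled libraries, against 210.4, 119 and 112 RPKM in shEZH2-labelled ones and 199.6, 127 and 119 RPKM in controls. In MDA-MB-231 and MDA-MB-436 the GSK343-labelled library alone was low, while under the MDA-MB-453 label it was the highest of the 3. Over 3 lines the paired difference was −0.92 ± 0.97 with a limma adjusted p of 0.847. Without the MDA-MB-453-labelled pair it was −1.64 ± 0.32 with a limma adjusted p of 0.00674. Over 3 lines the MDA-MB-453-labelled pair therefore decides the size of the difference.

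The upstream promoter bases of the 2 protein-coding genes that passed are shown so that their settings can be compared, from 250 to 51 bases before the RefSeq start (GRCh38.p14, minus strand, chr7:148884342-148884541 for EZH2 and chr19:48391602-48391801 for KDELR1), with each CCAAT box, searched as CCAAT on both strands, in capitals.
EZH2: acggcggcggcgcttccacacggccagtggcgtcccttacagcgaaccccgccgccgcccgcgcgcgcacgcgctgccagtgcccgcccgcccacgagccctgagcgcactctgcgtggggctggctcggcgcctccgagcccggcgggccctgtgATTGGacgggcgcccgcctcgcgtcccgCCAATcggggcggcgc
KDELR1: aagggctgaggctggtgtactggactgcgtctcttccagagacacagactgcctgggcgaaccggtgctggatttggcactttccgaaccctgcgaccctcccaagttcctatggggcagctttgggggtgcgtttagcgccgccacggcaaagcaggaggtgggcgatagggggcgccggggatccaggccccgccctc
EZH2 held 2 CCAAT boxes and KDELR1 0 in this window. At least 1 box was found in 27.4% of 35116 promoters of the same length, and at least 2 in 7.11%.

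RPPH1 is the RNA component of ribonuclease P, which trims transfer RNA precursors. The gene model counted here is an antisense entry (ENSG00000259001, minus strand of chromosome 14, bases 20343048 to 20343685) that covers the ribozyme entry of the same name, which is listed at 0 in all 9 libraries, so the 2 models cannot be told apart. It had 45.4, 34.8 and 27.6 RPKM in GSK343-labelled libraries, against 0.086, 0 and 22.0 RPKM in shEZH2-labelled ones and 21.8, 6.26 and 12.5 RPKM in controls. In MDA-MB-231 and in MDA-MB-436 the shEZH2-labelled libraries thus stood at or near 0 where the other 7 libraries held 6.26 RPKM or more. These values rest on 427 reads against 1 read in MDA-MB-231, a ratio of 529 (exact 95% counting interval 94.4 to 20900), and on 368 reads against 0 in MDA-MB-436, at least 132-fold with a floor of 3 reads per library. RPPH1 did not pass over 3 lines (limma adjusted p = 0.847) and passed without the MDA-MB-453-labelled pair (limma adjusted p = 1.17e-06). SNORA65, a small nucleolar RNA that guides pseudouridylation of ribosomal RNA, had 7.30, 5.57 and 1.5 RPKM under GSK343, against 1.26, 0.864 and 1.39 RPKM under shEZH2. It passed without that pair (limma adjusted p = 0.00481), but on 14 against 3 reads in MDA-MB-231 and 12 against 2 in MDA-MB-436.

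**Figure D1:**
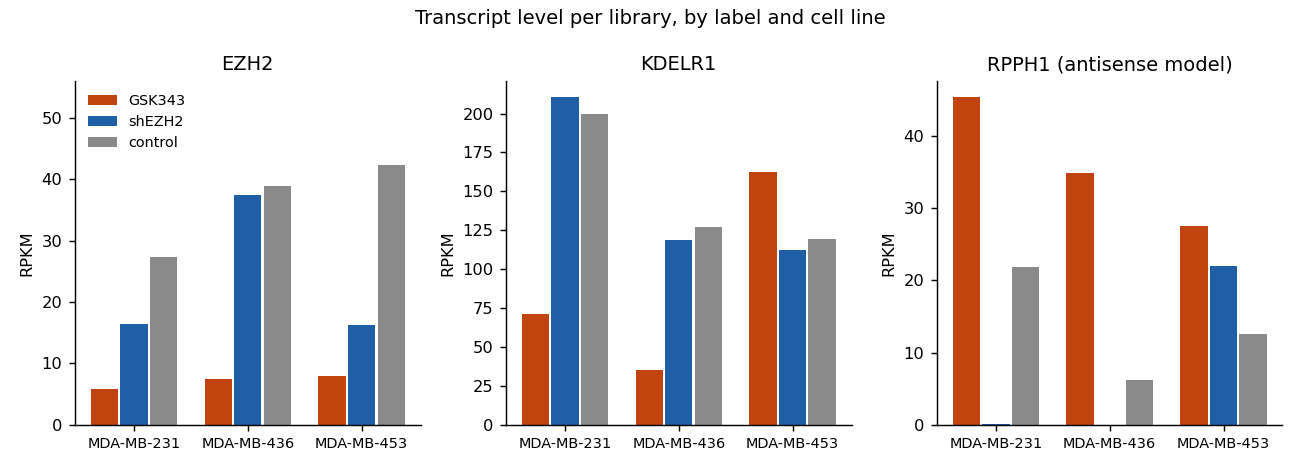
RPKM of EZH2, KDELR1 and the antisense gene model of RPPH1 in each library, grouped by cell line, with 1 bar per label and 1 library per bar. EZH2 bars of GSK343-labelled libraries stand between 5.77 and 7.99 RPKM, below all shEZH2-labelled and control bars, and RPPH1 is at 0.086 RPKM or less in 2 of the 3 shEZH2-labelled libraries.

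Passing was rare in this comparison: 0 of 12550 genes passed over 3 lines (0.0%), 607 had an unadjusted limma p under 0.05 (4.84%), and without the MDA-MB-453-labelled pair 4 genes passed (0.0319%), 2 higher and 2 lower (0.0159% each), with 818 at an unadjusted limma p under 0.05 (6.52%). Differences in MDA-MB-231 and those in MDA-MB-436 hardly went together across genes (Pearson r = 0.173 over 12550 genes, which are not independent). In all, 9 genes differed at least 2-fold the same way in both lines. Beside the 4 above they were SERPINB2, ESM1 and 3 microRNA hairpin genes, MIR6821, MIR4258 and MIR3682, with a handful of reads each.

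SERPINB2, an inhibitor of the plasminogen activator urokinase, had 1.70, 10.8 and 4.13 RPKM in GSK343-labelled libraries, against 0.1, 4.44 and 4.18 RPKM in shEZH2-labelled ones. Its difference without the MDA-MB-453-labelled pair was 1.21 with a limma adjusted p of 0.0647. ESM1, a proteoglycan secreted by endothelial and tumour cells, had 1.71, 32.6 and 6.19 RPKM under GSK343, against 0.325, 15.6 and 11.3 RPKM under shEZH2. In both MDA-MB-231 and MDA-MB-436 each of these genes was higher under GSK343 than in the control too, and neither passed the test. MIR6821, whose hairpin gene had the smallest p over 3 lines, was at 0 in all GSK343-labelled libraries and at 1.48, 1.52 and 1.63 RPKM in the shEZH2-labelled ones, which is 2 reads each in MDA-MB-231 and MDA-MB-436. It did not pass (limma adjusted p = 0.131), and no fold is given at so few reads.

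Genes with the same sign in 3 lines and the smallest p did not pass either. RNU1-106P, a U1 small nuclear RNA pseudogene, had the smallest p among the higher ones (2.89, 2.21 and 1.19 RPKM under GSK343, against 1, 0.343 and 0 under shEZH2; limma adjusted p = 0.239). Protein-coding genes on the lower side included SLC16A3, the lactate exporter MCT4, with 45.1, 9.05 and 22.5 RPKM under GSK343 and 66.4, 11.2 and 33.4 RPKM under shEZH2. UBA7, the activating enzyme for the ubiquitin-like modifier ISG15, had 4.07, 1.20 and 3.08 RPKM under GSK343 and 8.02, 2.09 and 4.20 RPKM under shEZH2. Each of these pairs ran the same way by less than 2-fold, and limma adjusted p was 0.847 for both genes.

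The other core genes of the complex had similar levels under both labels. EZH1, the second catalytic subunit, had 5.79, 5.20 and 5.52 RPKM under GSK343, against 5.53, 4.92 and 5.02 RPKM under shEZH2. SUZ12 had 15, 11.1 and 14.3 RPKM under GSK343 and 15.8, 10.5 and 14.2 RPKM under shEZH2. EED, which reads the methyl mark, had 4.84, 3 and 3.1 RPKM under GSK343 and 4.08, 2.43 and 3.64 RPKM under shEZH2. None of these 3 passed (limma adjusted p 0.866 to 0.998). Of 12 PRC2 core and accessory genes 11 were tested, 1 passed without the MDA-MB-453-labelled pair (EZH2), and the median difference was −0.07 in MDA-MB-231 and 0.05 in MDA-MB-436, beside 0.02 and 0.02 for all genes tested. Of 19 PRC1 RING finger and chromobox genes 0 passed, with a median of 0.08 in MDA-MB-231 (−0.05 after rescaling to a common sum) and one of 0.09 in MDA-MB-436. KDM6A, an eraser of the mark, had 2.72, 11.2 and 7.33 RPKM under GSK343 and 3.48, 9.82 and 6.95 RPKM under shEZH2.

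No gene of the lists that Polycomb is known to silence passed the test. Over 3 lines no gene at all passed, so this does not set the lists apart. None of 17 tested HOX genes, 27 other developmental transcription factors or 14 tumour suppressors described as EZH2-silenced passed. The lists held 0 genes past 2-fold in any line, beside 1.63%, 0.327% and 0.382% of all genes. In MDA-MB-231 their medians were 0.00, −0.06 and −0.03, and at a common sum 0.00, −0.20 and −0.18. An unadjusted limma p under 0.05 over 3 lines was found for 0 of the HOX genes, 5 of the developmental factors and 1 of the tumour suppressors, beside 4.84% of all genes. The 5 were PAX8, with a positive difference (0.34), and SOX4 (−0.40), SOX9 (−0.20), FOXA2 (−0.31) and MSX2 (−0.26), with negative ones. HOXB9 had 29, 3.42 and 15.3 RPKM under GSK343, against 24.2, 3.05 and 15.1 RPKM under shEZH2 and 15.2, 0.923 and 7.96 RPKM in controls. TIMP3, a metalloproteinase inhibitor, had 68.1, 0.210 and 38.2 RPKM under GSK343 and 96.5, 0.256 and 45.7 RPKM under shEZH2, with a limma unadjusted p of 0.0421. Of HOX list members 13, of the developmental factors 17 and of the tumour suppressors 4 were too low to be tested.

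MDA-MB-231 was the line in which the labels differed most. At least 2-fold differences, called by size with no test because each label has 1 library per line, numbered 68 higher (0.542%) and 136 lower (1.08%) in MDA-MB-231. By the same rule MDA-MB-436 had 22 higher (0.175%) and 19 lower (0.151%), and the MDA-MB-453-labelled pair 24 and 24 (0.191% each). The standard deviation of the difference over genes was 0.356 in MDA-MB-231, against 0.188 in MDA-MB-436 and 0.2 under the MDA-MB-453 label. Protein-coding genes made up 24 of the 68 higher and 119 of the 136 lower genes in MDA-MB-231. Rescaled to a common sum, the median over all genes moved to −0.101, against 0.022 as deposited, and the split became 108 higher and 375 lower. Of the split as deposited 33.3% was higher, and after that rescaling 22.4%. Counts of positive members below compare with 53.1% of all genes that were positive in MDA-MB-231, with 55.9% for MDA-MB-436 and 42.9% under the MDA-MB-453 label.

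Most 2-fold genes of MDA-MB-231 were not 2-fold in MDA-MB-436, yet a larger share of them was than of all genes. Those shared include SNORA65 and microRNA hairpin genes on few reads. Of the higher genes, 44 of 68 in MDA-MB-231 and 20 of 22 in MDA-MB-436 were not annotated as protein-coding. All genes are therefore not a like background for this share. Among its 136 lower genes 3 were also 2-fold lower in MDA-MB-436, beside 0.151% of all genes. There 92 had the same sign, with a median of −0.10, beside 5492 negative ones among all 12550 genes. Of the 68 higher genes 6 were 2-fold higher in MDA-MB-436, beside 0.175% of all genes. The same sign was found for 37, with a median of 0.03, beside 55.9% of all genes. The control of MDA-MB-231 lay between the labels for 42 of the higher and 83 of the lower genes. It was nearer to the shEZH2-labelled library for 44 of the 68 higher genes and nearer to the GSK343-labelled one for 82 of the 136 lower genes.

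Exon length moved with the difference in MDA-MB-231. Over protein-coding genes the median difference was 0.15, 0.08, 0.02, −0.03 and −0.12 over 5 equal groups from the shortest to the longest exons. In MDA-MB-436 it stayed between 0.01 and 0.04. Under the MDA-MB-453 label it ran the other way, from −0.064 in the shortest to 0.008 in the longest group. With this trend removed, 43 of the 68 higher genes and 124 of 135 lower genes with a known length kept a 2-fold difference, and all of them kept their sign. The part of length in the difference of a single gene was not tested beyond this.

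**Figure D2:**
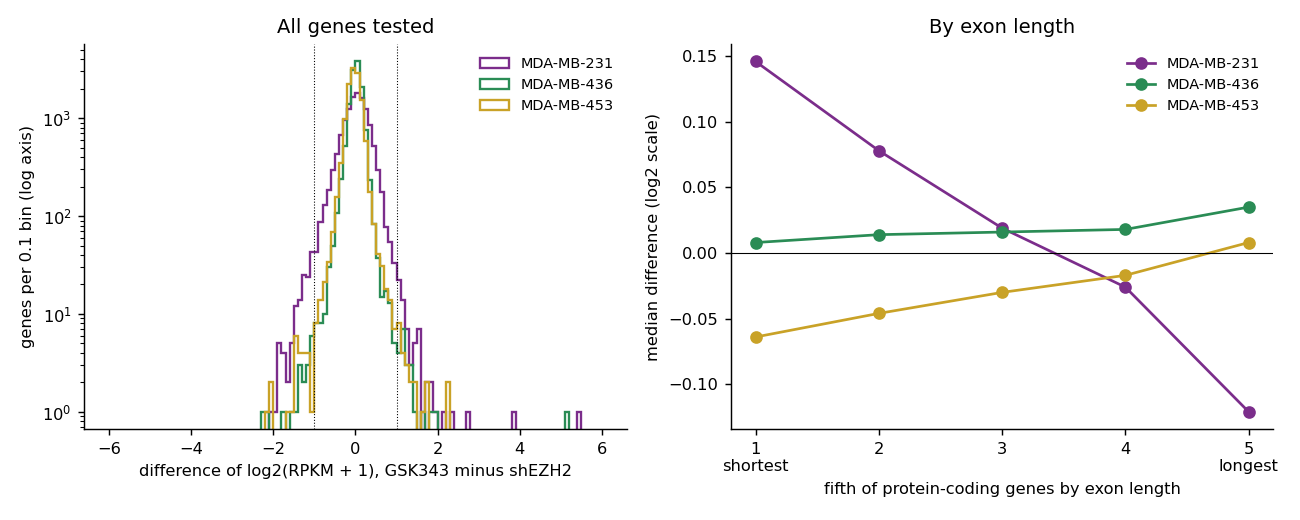
Left, number of the 12550 genes per 0.1 bin of the difference of log2(RPKM + 1), GSK343-labelled minus shEZH2-labelled, on a log axis, 1 line per cell line, with dotted lines at a 2-fold difference. Right, median difference over 5 equal groups of protein-coding genes ordered by exon length; MDA-MB-231 spreads widest and runs from 0.15 in the shortest to −0.12 in the longest group.

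A fit with a term for MDA-MB-231 asked whether its difference departs from the mean of the other lines, and 10 genes passed (0.0797%), 6 higher (0.0478%) and 4 lower (0.0319%), while 2502 had an unadjusted limma p under 0.05 (19.9%). It has 1 residual degree of freedom, and the count was 0 to 629 across alternative settings, so these calls depend on the setting. They were MMP3, MMP1, IL24, ANGPTL4, MT-TE and SNORA71A on the higher side and SREBF1, HSPG2, SPINT1 and MIR186 on the lower side. Of them MIR186 rested on 1 against 3 reads in MDA-MB-231 and SNORA71A on 10 against 1. The residual of a gene in this fit is the disagreement between its differences in MDA-MB-436 and under the MDA-MB-453 label. No spread of MDA-MB-231 itself enters the p-values. The MDA-MB-453-labelled libraries were also close to a weighted sum of the other treated libraries, so they may not count as a separate line.

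The genes higher under GSK343 in MDA-MB-231 included 2 secreted matrix proteases, MMP3 and MMP1, and the cytokine IL24. The list of 19 matrix proteases and inhibitors did not share that direction: 7 were positive and 12 negative, with a median of −0.12 (−0.26 without the length trend, −0.38 at a common sum). Of the list 2 were 2-fold higher and 1 was 2-fold lower, beside 0.542% and 1.08% of all genes. The lower one was ADAM8, a membrane metalloproteinase, with 28.5 RPKM under GSK343, 70.2 RPKM under shEZH2 and 34.6 RPKM in the control. MMP3, stromelysin 1, which cleaves proteoglycans and laminin (minus strand of chromosome 11, bases 102835801 to 102843803), had 194 RPKM under GSK343 in MDA-MB-231, against 12.2 RPKM under shEZH2 and 2.07 RPKM in the control. In MDA-MB-436 it was at 0.855 and 0.823 RPKM, and under the MDA-MB-453 label at 30.1 and 51.2 RPKM. The ratio in MDA-MB-231 was 15.9 (95% counting interval 14.5 to 17.5), and the difference exceeded that of the other lines by 4.25 with a limma adjusted p of 0.0442. MMP1, interstitial collagenase, its neighbour on the same strand (bases 102789920 to 102798160), had 2585, 3.06 and 680 RPKM under GSK343, against 861, 3.56 and 901 RPKM under shEZH2 and 281, 3.81 and 175 RPKM in controls. Both proteases were thus above their MDA-MB-231 control under either label and highest under GSK343, while in MDA-MB-436 both stayed under 4 RPKM.

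IL24, a cytokine of the IL-10 family, had 48.8, 6.04 and 19.5 RPKM in GSK343-labelled libraries, against 12.8, 4.63 and 17.1 RPKM in shEZH2-labelled ones and 5.31, 1.84 and 3.32 RPKM in controls. Its MDA-MB-231 difference of 1.85 exceeded that of the other lines by 1.60 (limma adjusted p = 0.0442). ANGPTL4, a secreted inhibitor of lipoprotein lipase, had 7.51, 2.24 and 3.83 RPKM under GSK343 and 1.48, 2.96 and 4.02 RPKM under shEZH2, an excess of 1.95 in MDA-MB-231 (limma adjusted p = 0.0476). In MDA-MB-231 its shEZH2-labelled library stood at the control level of 1.39 RPKM. The bases before the start of IL24, the called cytokine, read as follows (GRCh38.p14, plus strand, chr1:206897193-206897392, 250 to 51 bases before the RefSeq start, CCAAT box in capitals).
IL24: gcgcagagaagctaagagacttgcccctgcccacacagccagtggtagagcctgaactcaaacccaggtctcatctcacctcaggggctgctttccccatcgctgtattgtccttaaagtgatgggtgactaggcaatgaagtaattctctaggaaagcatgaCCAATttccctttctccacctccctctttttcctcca
This window held 1 CCAAT box. Of 20 promoters, which belong to 19 of the 2-fold higher genes, 20.0% held at least 1, beside 28.4% of the promoters of tested genes.

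Further genes in that direction did not pass. LCP1, the actin bundler L-plastin, had 21.7 RPKM under GSK343 and 7.79 RPKM under shEZH2 in MDA-MB-231, with a control of 3.62 RPKM (limma adjusted p = 0.0553). UCA1, a long noncoding RNA first described in bladder cancer, had 53.4 RPKM under GSK343, 17.7 RPKM under shEZH2 and 9.19 RPKM in the control. SUN3, a nuclear envelope protein, had 12.5, 3.57 and 1.21 RPKM in these 3 libraries. G0S2, an inhibitor of the lipase ATGL, had 244 RPKM under GSK343, 124 RPKM under shEZH2 and 232 RPKM in the control, so here the shEZH2-labelled library was the one that departed.

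Cytokines and regulators of NF-kB, the factor that drives inflammatory transcription, were split. Of 33 tested members 3 were 2-fold higher and 1 was 2-fold lower in MDA-MB-231, beside 0.542% and 1.08% of all genes. There 19 were positive and 13 negative, the median was 0.13 (0.07 with the length trend removed, 0.01 after rescaling to a common sum), and in MDA-MB-436 it was −0.06 with no member past 2-fold. TNFAIP3, the NF-kB inhibitor A20, had 20.7 RPKM under GSK343 and 9.27 RPKM under shEZH2 in MDA-MB-231, against 106 and 110.2 RPKM in MDA-MB-436. CXCL3, a chemokine and also 2-fold higher there, had 12.2 and 5.57 RPKM in MDA-MB-231, with 1.59 RPKM in the control. CSF2, the granulocyte-macrophage growth factor, had 254 and 129 RPKM in MDA-MB-231, with 17.6 RPKM in the control. IL1A, interleukin 1 alpha, had 37.6 and 18.4 RPKM with a control of 4.07 RPKM. CSF2 and IL1A fell short of 2-fold on the scale used. SAA2, an acute-phase protein, ran the other way with 29.6 RPKM under GSK343, 81.3 RPKM under shEZH2 and 3.43 RPKM in the control. SAA1 and TNFAIP2, which had the smallest paired p of the list, were negative in every line and did not pass. Their differences were −0.655, −0.402 and −0.271 for SAA1 and −0.691, −0.335 and −0.260 for TNFAIP2.

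**Figure D3:**
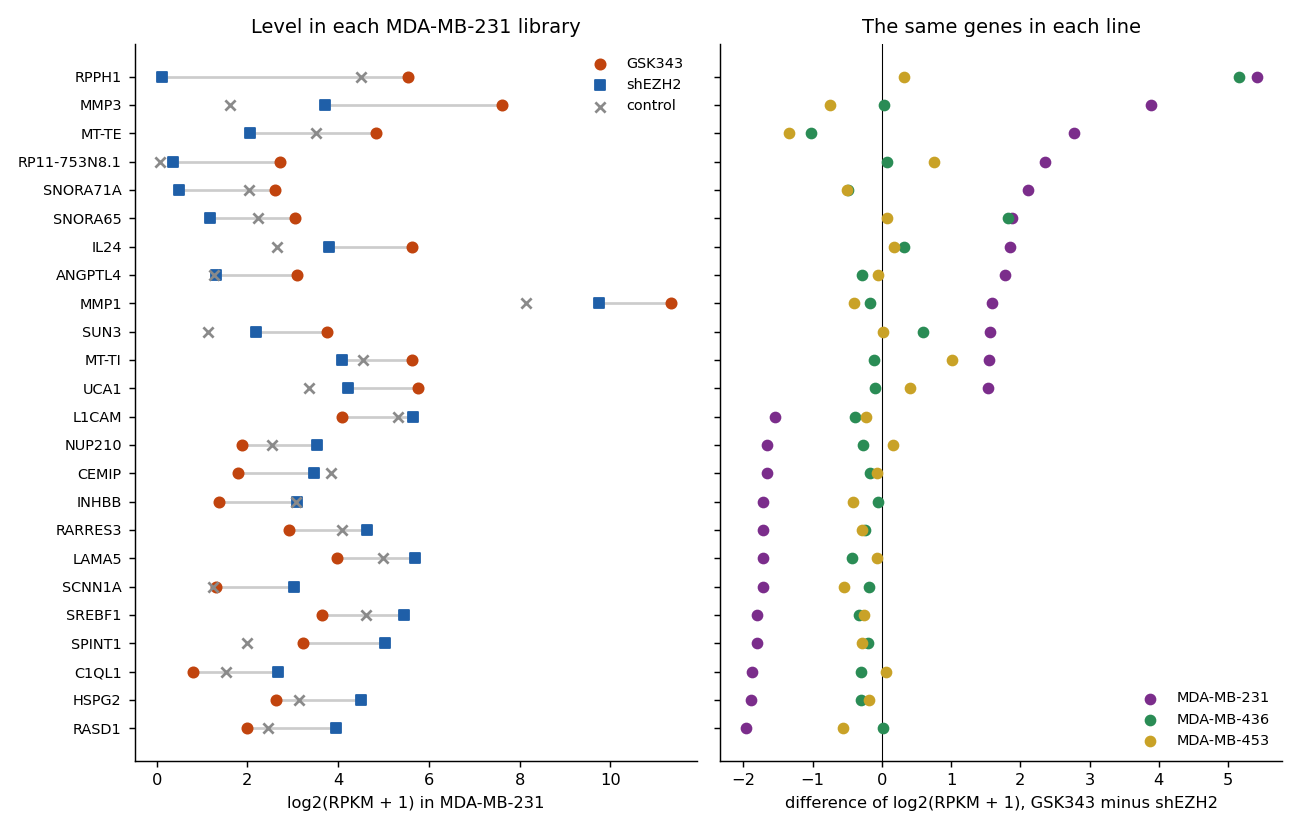
Left, log2(RPKM + 1) in the 3 MDA-MB-231 libraries of the 12 genes per direction with the largest difference among those at 5 RPKM or more in the higher library; right, the difference of GSK343-labelled minus shEZH2-labelled in each line for the same genes. MDA-MB-231 stands alone for most of them, while RPPH1 and SNORA65 are as far to the right in MDA-MB-436.

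Most stress genes had positive differences in MDA-MB-231. Of 31 targets of ATF4 and the unfolded protein response, 2 were 2-fold higher and 1 was 2-fold lower (0.542% and 1.08% of all genes). Of the list 23 were positive and 8 negative, with a median of 0.23 (0.13 without the length trend, 0.09 at a common sum). PPP1R15A, the phosphatase subunit GADD34, had 197 RPKM under GSK343, 86.1 RPKM under shEZH2 and 79.4 RPKM in the control. DDIT3, the stress factor CHOP, had 26.8, 15.9 and 10.1 RPKM in these libraries. DDIT4, an inhibitor of mTORC1, was the member past 2-fold lower, with 19.7 RPKM under GSK343, 40.4 RPKM under shEZH2 and 36.2 RPKM in the control. In MDA-MB-436 the median of the list was 0.06 and 0 members were past 2-fold.

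Of 29 immediate-early genes, which respond within minutes to growth factors, 2 were 2-fold higher in MDA-MB-231 and 0 were 2-fold lower (0.542% and 1.08% of all genes). Of the list 19 were positive and 10 negative, with a median of 0.16, and of 0.01 at a common sum. EGR1 had 22.2 RPKM under GSK343, 9.57 RPKM under shEZH2 and 11.6 RPKM in the control. KLF4, a pluripotency and growth-arrest factor, had 20.6, 9.78 and 13.5 RPKM. Metallothioneins bind zinc and copper. The 4 tested members of their list, MT1E, MT1F, MT1X and MT2A, were positive (median 0.55, and 0.40 without the length trend), while MT1A and MT1B, tested but outside the list, differed by −0.49 and 0.00. MT1E had 76.8 RPKM under GSK343, 32.3 RPKM under shEZH2 and 97.3 RPKM in the control. For EGR1, KLF4 and MT1E the shEZH2-labelled library was the lowest of the 3. None of these genes passed.

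Most genes of lipid synthesis had negative differences in MDA-MB-231, and 1 of them passed. SREBF1, the transcription factor SREBP-1 that drives fatty acid synthesis (minus strand of chromosome 17, bases 17810399 to 17837002), had 11.5, 26.4 and 23.2 RPKM in GSK343-labelled libraries, against 42.5, 33.4 and 28.1 RPKM in shEZH2-labelled ones and 23.5, 24.7 and 13.1 RPKM in controls. In MDA-MB-231 the control lay between the labels. Its difference of −1.80 in MDA-MB-231 departed from that of the other lines by −1.51 (limma adjusted p = 0.0442). The upstream window of this called gene is shown on the same terms (GRCh38.p14, minus strand, chr17:17837037-17837236).
SREBF1: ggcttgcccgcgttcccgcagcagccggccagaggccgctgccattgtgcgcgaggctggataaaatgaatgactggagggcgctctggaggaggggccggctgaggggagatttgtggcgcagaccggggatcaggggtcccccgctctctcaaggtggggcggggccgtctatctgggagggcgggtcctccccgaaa
It held 0 CCAAT boxes. Of 137 promoters, which belong to 90 of the 2-fold lower genes, 29.9% held at least 1, beside 28.4% of the promoters of tested genes.

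Of 33 tested genes of cholesterol synthesis and SREBP or LXR targets, 5 were 2-fold lower and 0 were 2-fold higher in MDA-MB-231, beside 1.08% and 0.542% of all genes. There 26 were negative and 7 positive, the highest at 0.65, with a median of −0.34 (−0.38 without the length trend, −0.50 at a common sum). In MDA-MB-436 the median was −0.01 with 15 positive members and in the MDA-MB-453-labelled pair 0.05. In the line-specific fit 0 members passed besides SREBF1, and 18 had a limma unadjusted p under 0.05 on the lower side, beside 1164 of 12550 genes. SCD, the desaturase that makes oleate, had 74.1, 318 and 239 RPKM under GSK343, against 197, 349.6 and 236 RPKM under shEZH2. In MDA-MB-231 the control level of SCD (88.7 RPKM) was nearer to the GSK343-labelled than to the shEZH2-labelled library. ABCA1, the cholesterol exporter, had 2.61 RPKM under GSK343, 8.80 RPKM under shEZH2 and 2.71 RPKM in the control. FASN, fatty acid synthase, had 55.8, 109.7 and 89.9 RPKM in these libraries.

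Genes of the extracellular matrix and its receptors were mostly lower in MDA-MB-231. None of 13 tested collagens was positive, and 2 were 2-fold lower, beside 1.08% of all genes. The median was −0.71 (−0.63 without the length trend, −0.93 at a common sum). In MDA-MB-436 the median was −0.15 and 0 were past 2-fold, beside 0.327% of all genes. COL18A1, the basement membrane collagen that yields endostatin, had 8.12 RPKM under GSK343, 19.7 RPKM under shEZH2 and 22.1 RPKM in the control of MDA-MB-231. COL13A1, a transmembrane collagen, had 18.6, 41.9 and 42.4 RPKM. For both the shEZH2-labelled library stood near the control and the GSK343-labelled one below it. The summed level of 6 fibroblast markers, which include 2 collagens, was 4.55 RPKM under GSK343 and 8.35 RPKM under shEZH2 in MDA-MB-231, and that of 4 endothelial markers 2.30 and 2.88 RPKM. Their part in the collagen levels was not tested.

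Integrins and laminins had a median of −0.67 in MDA-MB-231 (−0.66 without the length trend) and −0.06 in MDA-MB-436. Of 17 members 2 were 2-fold lower in MDA-MB-231, beside 1.08% of all genes, and 2 were positive there. LAMA5, the laminin alpha 5 chain, had 14.8, 19.0 and 26.2 RPKM under GSK343, against 51.1, 25.9 and 27.7 RPKM under shEZH2. ITGB4, the integrin of hemidesmosomes, had 15.6, 14.2 and 18.0 RPKM under GSK343 and 39.5, 19.2 and 22.4 RPKM under shEZH2. HSPG2, the basement membrane proteoglycan perlecan, had 5.15, 3.39 and 8.53 RPKM under GSK343 and 21.8, 4.40 and 9.88 RPKM under shEZH2. Of these, HSPG2 passed the line-specific fit with a departure of −1.64 in MDA-MB-231 (limma adjusted p = 0.0442), and its difference there was −1.89, and −1.72 with the length trend removed.

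Further surface and secreted proteins were on the same side. SPINT1, the inhibitor HAI-1 of cell-surface serine proteases (plus strand of chromosome 15, bases 40844018 to 40858207), had 8.34, 1.18 and 8.98 RPKM under GSK343, against 31.6, 1.49 and 11.2 RPKM under shEZH2 and 2.98, 0.320 and 1.14 RPKM in controls (line-specific limma adjusted p = 0.0476). Both labels were above the control here, shEZH2 by more. L1CAM, a neural adhesion molecule, had 16, 70.5 and 47.7 RPKM under GSK343, against 48.9, 92.3 and 56 RPKM under shEZH2. CEMIP, which breaks down hyaluronan, had 2.49 RPKM under GSK343, 9.98 RPKM under shEZH2 and 13.4 RPKM in the control of MDA-MB-231. RASD1, a Ras-like protein induced by glucocorticoids, had 2.98, 14.6 and 4.47 RPKM in these libraries, and INHBB, an activin subunit, 1.59, 7.49 and 7.36 RPKM. CEMIP and INHBB were low under GSK343 alone, RASD1 high under shEZH2 alone, and none of these 4 passed.

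Antigen presentation and complement genes were mostly lower too, without passing. Of 8 tested genes of MHC class II, which displays peptides to helper T cells, 1 was 2-fold lower in MDA-MB-231 (1.08% of all genes). There 1 was positive, and the median was −0.73 (−0.78 without the length trend). The 2-fold lower one was HLA-DRB1, with 14.8 RPKM under GSK343, 31.0 RPKM under shEZH2 and 10.8 RPKM in the control of MDA-MB-231. HLA-DRA had 19.8 RPKM under GSK343, 38.1 RPKM under shEZH2 and 12.9 RPKM in the control, and 0 RPKM under both labels in MDA-MB-436. CD74, the invariant chain, had 246 RPKM under GSK343, 397 RPKM under shEZH2 and 232 RPKM in the control of MDA-MB-231. CIITA, the master activator of the class, had 2.32, 3.63 and 1.66 RPKM. All of these were highest under shEZH2, and MDA-MB-436 hardly expresses them. CD14, the only leukocyte marker above 1 RPKM, moved beside them with 5.82 RPKM under GSK343, 12.5 RPKM under shEZH2 and 5.79 RPKM in the control, while PTPRC, the pan-leukocyte marker, was at 0.105, 0.203 and 0.050 RPKM. The part of other cells in these levels was not tested.

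Of 9 tested complement genes 2 were 2-fold lower in MDA-MB-231, beside 1.08% of all genes, and 2 were positive. The median was −0.50 there, against −0.04 for MDA-MB-436. C3, the central component, had 72.5 RPKM under GSK343, 131 RPKM under shEZH2 and 7.95 RPKM in the control of MDA-MB-231. MHC class I and peptide loading genes had a median of −0.24 in MDA-MB-231, while it was −0.15 in MDA-MB-436 and −0.16 under the MDA-MB-453 label. In any line 0 of 15 were past 2-fold, beside 1.63%, 0.327% and 0.382% of all genes. Of 37 interferon-stimulated genes 26 were negative in MDA-MB-231 and 33 in MDA-MB-436, with 24 of the same sign in both. The median was −0.10 in MDA-MB-231 (−0.28 at a common sum). There 1 member was 2-fold higher and 2 were lower, beside 0.542% and 1.08% of all genes. For MDA-MB-436 the median was −0.18 (−0.26 at a common sum), with 0 past 2-fold, beside 0.327% of all genes. GBP2, an interferon-induced GTPase, had 2.59 RPKM under GSK343 and 9.25 RPKM under shEZH2, whereas OASL had 5.64 and 2.29 RPKM, both in MDA-MB-231. Targets of TGF-beta and BMP had a median of −0.29 there, with 2 of 22 members 2-fold lower, beside 1.08% of all genes. These were ID1 (6.21 RPKM under GSK343, 17.7 RPKM under shEZH2, 26.6 RPKM in the control) and ID3, both inhibitors of differentiation factors.

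Cell division genes had negative medians in every line. Of 48 mitosis genes 44 were not positive in MDA-MB-231 and 42 in MDA-MB-436. Medians were −0.28, −0.12 and −0.13 in the 3 lines. In any line 0 members were past 2-fold, beside 1.63%, 0.327% and 0.382% of all genes. NEK2, a centrosome kinase, had 11.1, 11.5 and 11.9 RPKM under GSK343, against 21.5, 14.4 and 15.8 RPKM under shEZH2. TOP2A, topoisomerase II alpha, had 99.8, 39.4 and 82.2 RPKM under GSK343 and 160.3, 43.2 and 93.0 RPKM under shEZH2. DNA replication genes had medians of −0.02 in the first line (−0.17 at a common sum) and 0.04 in the second, with 0 of 41 past 2-fold. No gene of either list passed.

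Most ribosomal, respiratory chain and histone genes had positive differences in MDA-MB-231. Ribosomal protein genes were positive in 37 of 38 members, beside 53.1% of all genes, with a median of 0.32 (0.24 without the length trend, 0.17 at a common sum), against 0.03 in MDA-MB-436 and −0.12 under the MDA-MB-453 label. Nuclear genes of oxidative phosphorylation were positive in 34 of 38 members, with a median of 0.20 (0.10 without the length trend, 0.06 at a common sum). Replication-dependent histone genes, 11 of 17 listed ones tested, had a median of 0.32 in MDA-MB-231 (0.19 without the length trend) and −0.17 in MDA-MB-436. HIST1H3B, which was 2-fold lower in MDA-MB-436, is not among these 11. The causes of these differences, exon length among them, were not tested.

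The 13 genes that mitochondrial DNA encodes were positive in 13 of 13 cases in MDA-MB-231, with a median of 0.62 (0.49 without the length trend, 0.48 at a common sum), against 0.00 in MDA-MB-436. MT-ND1, a subunit of complex I, had 4058, 2144 and 4128 RPKM under GSK343, against 2111, 2119 and 2448 RPKM under shEZH2 and 2186, 3179.6 and 2083 RPKM in controls. Under GSK343 both MDA-MB-231 and the MDA-MB-453 label stood high. The median under the MDA-MB-453 label was 0.65, and the 10 most abundant genes took 17.3%, 12.6% and 18.0% of summed RPKM under GSK343 and 13.8%, 12.4% and 13.5% under shEZH2. No member passed, and 6 had a limma unadjusted p under 0.05 over 3 lines, beside 4.84% of all genes. MT-TE, a mitochondrial transfer RNA, passed the line-specific fit on few reads: it had 27.5, 3.50 and 2.83 RPKM under GSK343 and 3.17, 8.14 and 8.72 RPKM under shEZH2, which is 28 against 4 reads in MDA-MB-231.

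**Figure D4:**
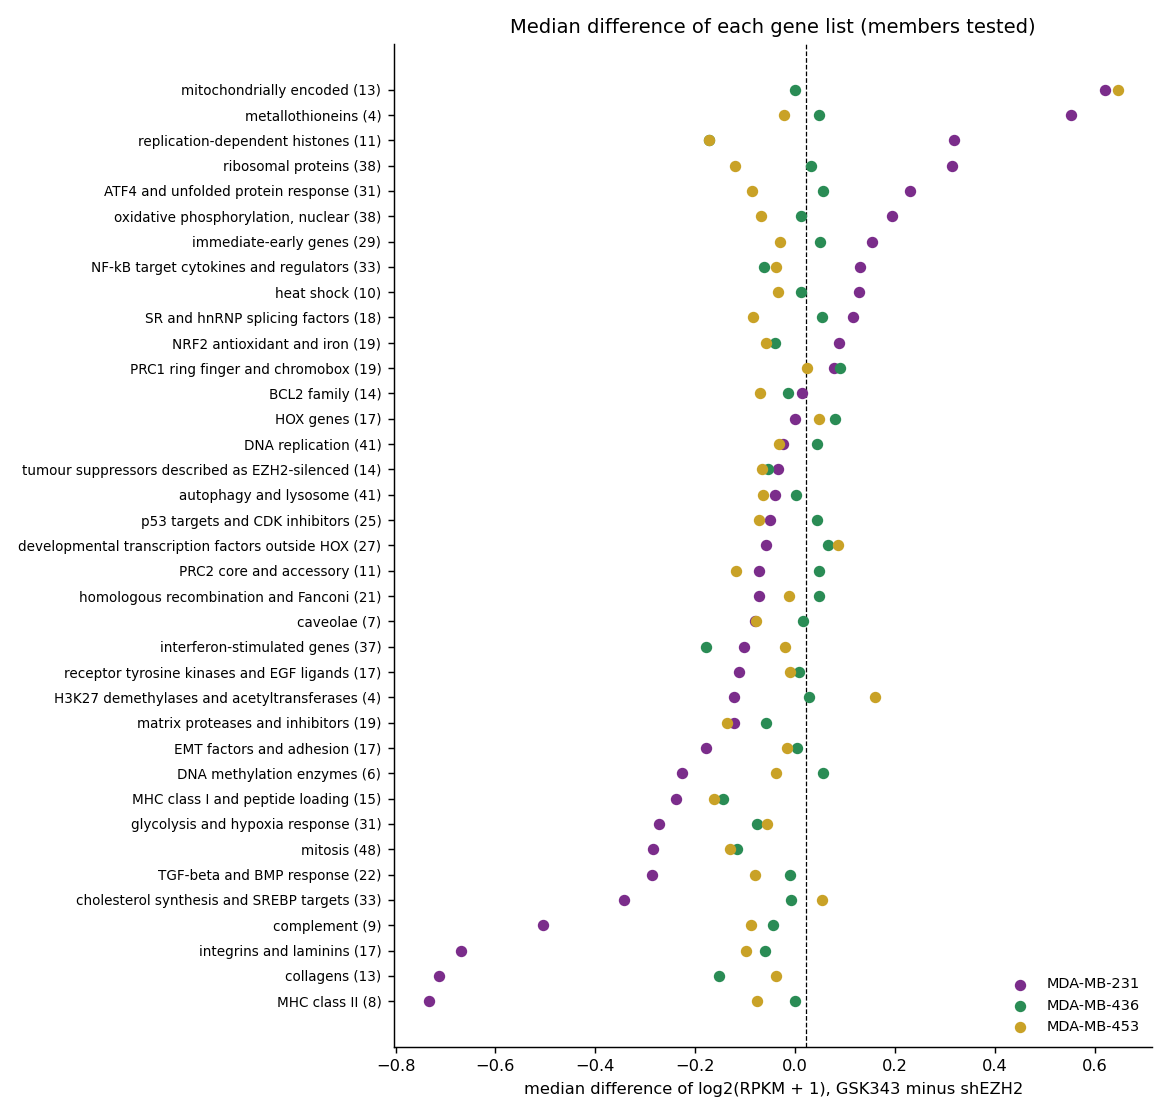
Median difference of log2(RPKM + 1), GSK343-labelled minus shEZH2-labelled, of each gene list with 4 or more tested members, 1 point per cell line, with the number of tested members in brackets and a dashed line at the median of all genes in MDA-MB-231 (0.02). MDA-MB-231 points run from −0.73 for MHC class II to 0.62 for mitochondrially encoded genes, while those of MDA-MB-436 stay between −0.18 and 0.09.

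In MDA-MB-436 the labels were closer. Of the 41 genes past 2-fold (0.327%), 8 were protein-coding: EZH2, KDELR1, SERPINB2 and ESM1 above, and FGFBP1, S100A9, TNFRSF11B and HIST1H3B, of which SERPINB2 and ESM1 were higher under GSK343 and the other 6 lower. FGFBP1, TNFRSF11B and HIST1H3B were named after their values were seen. S100A9, a calcium-binding inflammatory protein, had 5.54 RPKM under GSK343, 14.0 RPKM under shEZH2 and 8.67 RPKM in the control of MDA-MB-436, and 0 RPKM under both labels in MDA-MB-231. No gene passed the fit with a term for MDA-MB-436 (0.0%), with 237 genes at a limma unadjusted p under 0.05 (1.89%).

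Under the MDA-MB-453 label 48 genes were past 2-fold (0.382%), and 4 of them were protein-coding, all lower: SEC61B, CNN2, FTL and MT1B, named after their values were seen. SEC61B, a subunit of the channel that moves new proteins into the endoplasmic reticulum, had 60.1, 31.5 and 8.65 RPKM under GSK343, against 46.6, 27.4 and 37.8 RPKM under shEZH2 and 46.6, 43.2 and 34.7 RPKM in controls. Among all libraries the MDA-MB-453 one under GSK343 was low on its own, below every other one. SEC61B passed the fit with a term for that line (−2.28, limma adjusted p = 0.0367), as did RPPH1 (−4.97, limma adjusted p = 0.000168), whose difference was 0.32 there and over 5 in both other lines. These were the 2 calls of that fit (0.0159%), which had 308 genes at an unadjusted limma p under 0.05 (2.45%).

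A few genes ran in opposite directions in MDA-MB-231 and MDA-MB-436. A total of 9 genes differed at least 2-fold in MDA-MB-231 and by at least 0.5 the other way in MDA-MB-436, and 3 of them are protein-coding. AMIGO2, a neural adhesion protein, had 29.5 and 5.92 RPKM under GSK343 in these lines, against 12.8 and 9.40 RPKM under shEZH2. OASL, an interferon-induced sensor protein, had 5.64 and 11.1 RPKM under GSK343, against 2.29 and 18.4 RPKM under shEZH2. STMN3, a microtubule-destabilising protein, had 2.39 and 3.72 RPKM under GSK343, against 5.83 and 2.04 RPKM under shEZH2. The labels thus changed places between the lines for each of the 3.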

How the data were processed

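RNA sequencing of 9 libraries was deposited as 1 table of RPKM for 58037 genes by the authors. Reads were handled with STAR and HTSeq on GRCh38 per the submitters' processing notes, with versions, annotation and strand setting not given in the sources used here. Values are whole multiples of 1 read within 0.05 read, from which reads per library were recovered; intervals and floors cover counting error only.

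The fit was limma 3.58.1 in R 4.3.3 with a mean-variance trend on log2(RPKM + 1), with cell line and label as terms, over 6 libraries and 12550 genes that reached 1 RPKM in 3 or more of them, which leaves 2 residual degrees of freedom. The line-specific fit adds label within 1 line and leaves 1, which is the disagreement between the other lines. The paired fit without the MDA-MB-453-labelled pair also leaves 1, the disagreement between MDA-MB-231 and MDA-MB-436. Adjusted p-values are Benjamini-Hochberg over all genes, two-sided, at 0.05. Nothing says whether libraries came from separate cultures, so p-values measure the spread between these libraries only. Within a line, 2-fold is a rule of size without a test. Exon lengths and gene coordinates are from GENCODE 29, which holds 92.5% of the gene IDs in the same version and 99.0% in any. Promoters are from RefSeq on GRCh38.p14. The first listed promoter of a gene is shown, while shares count every listed promoter.

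Pairing by line rests on the cell line itself: deviations of the labels correlated at 0.914, 0.957 and 0.506 within lines. Genes were named by a rule: the smallest p with 1 sign over 3 lines, the largest 2-fold differences per line at 5 RPKM or more, the smallest line-specific p, EZH2, EZH1, SUZ12 and EED, the largest and most significant members of 42 lists, and opposite differences between MDA-MB-231 and MDA-MB-436. A few were added after their values were seen, and the text marks only some of the genes outside this rule. CSF2, IL1A, CD74 and CIITA, for example, are unmarked and not among the picks of their lists. The members and lists were chosen with earlier results of these data known. Some members of the lists are not reported here by name. Scripts were tested on simulated data.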

Additional observations from a re-analysis of the deposited data

Results flagged for a closer look

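In the line-specific fit the label difference (log2, GSK343-labelled minus shEZH2-labelled) of 10 genes in MDA-MB-231 departed from the mean of the other lines, each past the limma threshold. The departure was 4.25 for the stromelysin MMP3, 1.87 for the collagenase MMP1, 1.60 for the cytokine IL24 and 1.95 for the lipase inhibitor ANGPTL4. It was −1.51 for the lipid regulator SREBF1, −1.64 for perlecan (HSPG2) and −1.56 for the protease inhibitor SPINT1. Short RNAs with few reads gave 3.95 for MT-TE, 2.60 for SNORA71A and −2.80 for MIR186. The residual spread of each gene came from the other lines, not from MDA-MB-231.

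Under the MDA-MB-453 label the departure was −2.28 for SEC61B, a translocon subunit, and −4.97 for RPPH1.

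Other genes differed in opposite directions in MDA-MB-231 and MDA-MB-436, and that gap was not tested. It was 1.73 for the adhesion protein AMIGO2, 1.70 for OASL and −1.65 for STMN3. Short RNAs showed gaps of 3.80 for MT-TE, 2.48 for SNORA14B, 1.99 for MT-TS2, −3.20 for a Y_RNA gene, −2.67 for SCARNA22 and −2.30 for MIR590.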

How the results depend on the processing

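The paired fit passed 0 genes with the cell line as the block and 0 with no replicate block. It passed 1 at a common sum and 1 without the mean-variance trend, and 0 to 4 when a line was left out, with 4 (EZH2, KDELR1, RPPH1, SNORA65) without the MDA-MB-453-labelled pair. The line-specific fit for MDA-MB-231 passed 10 genes, 1 with a pseudocount of 0.1 or 0.5, 0 without a filter on low values, 180 at a mean RPKM of at least 5, 629 at a common sum, 1 without the trend, 1 with all 9 libraries, 368 among protein-coding genes and 298 with the length trend removed. For MDA-MB-436, against 0, it passed 4 with a pseudocount of 0.1, 4 with median-ratio rescaling and 7 with all 9 libraries. For MDA-MB-453, against 2, it passed 0 without the filter, 7 at a mean of at least 5, 1 with median-ratio rescaling, 1 without the trend, 0 with all 9 libraries and 12 with the length trend removed. The causes were not tested.

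Counts of genes past 2-fold also moved. With a pseudocount of 0.1 they numbered 217 higher and 348 lower in MDA-MB-231, 84 and 70 in MDA-MB-436, and 66 and 76 in MDA-MB-453. With 0.5 they were 113 higher in MDA-MB-231, 38 and 34 in MDA-MB-436, and 42 and 41 in MDA-MB-453. Without the filter there were 53 and 48 in MDA-MB-436 and 73 and 53 in MDA-MB-453. At a mean of at least 5 there were 35 and 68, 3 and 6, and 5 and 8 in the 3 lines. At a common sum there were 108 and 375, 51 and 46, and 46 and 65. Among protein-coding genes there were 24 higher in MDA-MB-231, 2 and 6 in MDA-MB-436, and 0 and 4 in MDA-MB-453. With the length trend removed there were 43 higher in MDA-MB-231.

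The paired difference changed sign for SUZ12 (−0.01 with median-ratio rescaling, −0.067 at a common sum, and −0.035 to 0.039 when a line was left out), for EP300 (−0.047 at a common sum, −0.103 to 0.142 when a line was left out) and for MT1E (−0.073 to 0.664 when a line was left out). Of the values of single genes, 3379 kept direction and call, 167 moved, 46 gained and 49 lost a call. With 1 library per label and line, and few reads for short RNAs, precision is limited.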
